A study of Mus musculus with 74 samples.

Results

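Neat1, Malat1, Gas5 and Snhg12, 4 long RNAs that encode no protein, were followed across 18 RNA-seq libraries of mouse macrophage-like cells stimulated with lipopolysaccharide (LPS). They are 4 of the 24851 genes in the tables. Neat1 was selected on its log2 fold changes at 60 min of LPS in the edited lines, where it was among the RNAs with large decreases. The other 3 were chosen with it as non-coding RNAs. The 60 min values of the edited lines, and every difference built on them, are therefore described here without a test. The 0 min libraries of the edited lines were part of that choice. They also enter the tested 0 min differences from RAW264.7 and the tested 120 min LPS responses of these lines.

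The study asks how the replacement histone H3.3 and its phosphorylation bear on transcription induced by LPS, a bacterial cell wall product that activates macrophages through the receptor TLR4. RAW264.7 is an established mouse macrophage-like line. The labels name 264 and 3205 as derived lines, and the series describes hypomorphic RAW264.7 cells and double knockouts of H3f3a and H3f3b made by CRISPR in this system, without saying which number is which. Each of the 9 groups was 1 line (RAW264.7, 264 or 3205) at 0, 60 or 120 min of LPS, with 2 libraries. Whether the 2 came from separate cultures is not stated, so the p-values reflect the spread within such pairs, and that spread may be technical. Each edited line is a single numbered line, and a tissue label of bone marrow derived macrophage is given for all 3 beside the cell line name. The LPS dose for the lines and the alleles of the edited lines are not stated in the labels.

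Neat1 is the RNA scaffold of paraspeckles, nuclear bodies in which RNA-binding proteins such as NONO and SFPQ gather on the long Neat1 isoform. Its short isoform ends in a poly(A) tail, whereas the long isoform and Malat1 end in a triple helix without one. Malat1 is an abundant RNA of nuclear speckles, where splicing factors are stored. Gas5 and Snhg12 are host genes of small nucleolar RNAs: the small RNAs are cut from introns and the spliced remainder is open to nonsense-mediated decay, a translation-coupled degradation pathway, which is why such host RNAs are known to vary with translation and growth state.

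Libraries held 13084927 to 53860392 reads. H3f3a, a gene of H3.3, ranged from 2055 to 3109 normalized reads over the 6 RAW264.7 libraries, from 172 to 236 in line 264 and from 37.5 to 76.2 in line 3205. H3f3b, the other gene of H3.3, ranged from 13623 to 34155, from 5642 to 17765 and from 7177 to 13284 in the same order. All 11 macrophage markers present in the tables, among them Csf1r, Spi1 and Cd68, averaged 50 normalized reads or more. Summed markers of fibroblasts, epithelial cells and T and NK cells did not exceed 13.7 normalized reads in any library, and those of B cells did not exceed 152. The macrophage markers differed between lines: at 0 min 1 of 11 was called higher and 5 lower in line 264 (median log2 difference -0.55), and 1 higher and 3 lower in line 3205 (-0.37). Over all genes, 7.61% were called higher and 5.57% lower in line 264 at 0 min. In line 3205 these shares were 8.42% and 5.89%. The B cell marker Cd79b, singled out after its values were seen, was called higher in line 3205 and reached at most 148 normalized reads in any library. The part of these marker differences in the line differences of the 4 RNAs was not tested. A normalized read is a read count divided by 1 size factor per library. In bulk RNA, fewer cells with an RNA and less of that RNA per cell cannot be told apart.

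In RefSeq (GRCm38.p6, the patch release of mm10), Malat1 and Neat1 are neighbours on chromosome 19. Neat1 spans 5824708 to 5845480 (20773 bases, 2 transcripts) and Malat1 spans 5795690 to 5802672 (6983 bases, 1 transcript), with 22036 bases between them. Gas5 lies on chromosome 1 at 161034601 to 161038539 and overlaps other genes, among them Zbtb37 and several small nucleolar RNAs. Snhg12 lies on chromosome 4 at 132308678 to 132311024, with Snora16a inside it. The sources used here do not say whether the authors' counting used strand, so reads of overlapping genes cannot be told apart, nor can the Neat1 isoforms in a single row per gene.

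Promoter windows were on hand for 3 of the 4 genes. The 3 windows shown run from 100 bases before to 50 bases from the start site on. They are shown because they hold a start from which each RNA is transcribed. All are from RefSeq GRCm38.p6, 5′ to 3′ on the strand of the gene. Capitals mark matches to the TATA-like TATATA, to the core TGACGT or to the full cyclic AMP response element TGACGTCA. The TATA box TATAAA, the AP-1 site TGACTCA and the CCAAT box were searched as well, and every search covered both strands.
Malat1, chr19:5802623-5802772, minus strand: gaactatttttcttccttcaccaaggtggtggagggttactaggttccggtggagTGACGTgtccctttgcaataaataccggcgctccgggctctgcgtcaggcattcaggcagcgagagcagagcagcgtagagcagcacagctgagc
Gas5, downstream of its 2 starts, chr1:161035066-161035215, plus strand: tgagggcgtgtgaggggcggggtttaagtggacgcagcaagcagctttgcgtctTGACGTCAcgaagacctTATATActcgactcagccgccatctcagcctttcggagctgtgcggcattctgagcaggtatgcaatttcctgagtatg
Snhg12, chr4:132308578-132308727, plus strand: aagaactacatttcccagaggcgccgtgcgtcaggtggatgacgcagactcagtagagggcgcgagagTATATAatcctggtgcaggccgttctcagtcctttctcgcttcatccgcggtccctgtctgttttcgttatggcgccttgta
Malat1 and Gas5 both carried TGACGT, the core of the cyclic AMP response element, 45 and 46 bases before the start. In Gas5 this core was part of the full element TGACGTCA, which reads the same on the other strand. Malat1 had a further TGACGT on the other strand 155 bases before the start, outside the stretch shown. Over the full 300-base windows, TGACGT was present in 7.51% of 32851 RefSeq windows and TGACGTCA in 1.79%. TATATA lay 29 bases before the start of Gas5 and 32 bases before that of Snhg12, and 5.67% of windows held it. The Gas5 start shown begins with a C in a run of 5 pyrimidines, a feature of the terminal oligopyrimidine class of host genes and ribosomal protein genes that 2.51% of windows shared. The upstream Gas5 start, not shown, begins with a G, and its window held no match to any of the searched motifs. The Snhg12 start begins with a run of 6 pyrimidines that opens with T. These matches are letters in a window and were not tested as binding sites.

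In RAW264.7, Neat1 measured 5628 and 4082 normalized reads without LPS (replicates 1 and 2), 1565 and 2424 after 60 min of LPS and 2709 and 4087 after 120 min. In line 264 it stood at 3700 and 4018, then 772 and 680, then 1161 and 2173. In line 3205 it stood at 2612 and 1875, then 521 and 491, then 905 and 1776. All 3 lines had their lowest Neat1 at 60 min, and both 120 min libraries of each line lay above both of its 60 min libraries. That held for 24.9%, 18.7% and 17% of genes in RAW264.7, line 264 and line 3205.

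**Figure D1:**
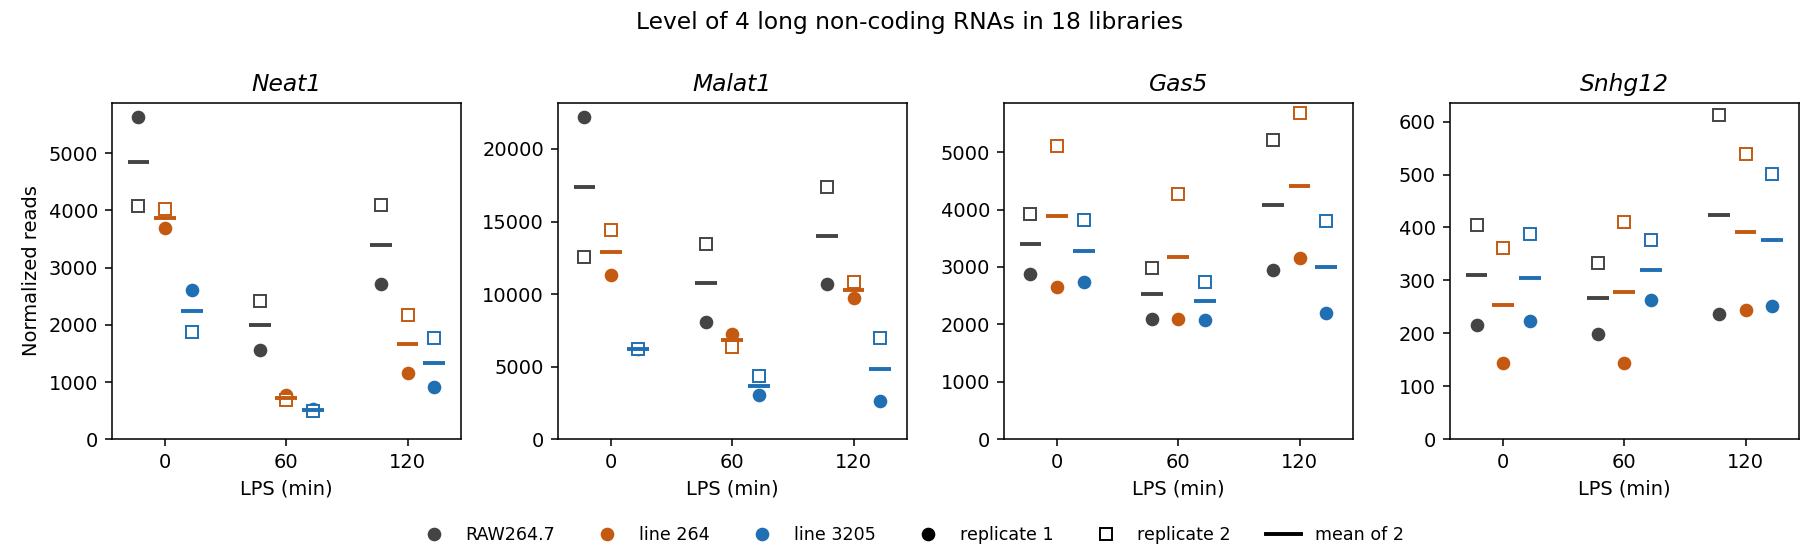
Normalized reads of Neat1, Malat1, Gas5 and Snhg12 (vertical axes, starting at 0, 1 scale per panel) against minutes of LPS, with filled circles for replicate 1, open squares for replicate 2 and bars for the mean of 2 libraries in RAW264.7, line 264 and line 3205. Neat1 is lowest at 60 min in every line, and the squares of Gas5 and Snhg12 lie above the circles in all 9 groups.

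In RAW264.7, Neat1 fell by 1.30 ± 0.23 on the log2 scale at 60 min (2.46-fold, 95% interval -1.82 to -0.78), with a limma adjusted p of 0.0154. Both 60 min libraries lay below both 0 min libraries, as was the case for 21.6% of genes. Neat1 was the 1 member of 4 that passed the test in this comparison, in which 2.98% of 17301 genes were called (1.66% higher and 1.32% lower). Neat1 had an adjusted p of 0.0047 with the replicate number as a block, and from 2.8e-05 to 0.074 over the alternatives that used all libraries. Without replicate 1 of the 0 min group the change was -1.07 (adjusted p 0.146), and without replicate 1 of the 60 min group it was -0.98 (0.109), so the call rests on those libraries.

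The decreases at 60 min that led to the choice of Neat1 were -2.41 ± 0.23 in line 264 and -2.13 ± 0.23 in line 3205 on the log2 scale. As means, 18.8% and 22.6% of the 0 min level were left in those lines, against 41.1% in RAW264.7. The response exceeded that of RAW264.7 by -1.11 ± 0.33 in line 264 and -0.83 ± 0.33 in line 3205, a description that follows from the choice. In both edited lines the 60 min libraries lay below the 0 min libraries, as did those of 16.6% and 15.2% of genes. Malat1 had log2 changes of -0.91 ± 0.30 and -0.78 ± 0.30 in the same libraries. In the authors' deposited table, Neat1 had log2 fold changes of -1.28, -2.41 and -2.15 at 60 min in RAW264.7, line 264 and line 3205. The deposited p-values refer to a change larger than 1 log2 unit. For RAW264.7 the adjusted p was 1, and those of the edited lines are left out because the choice used these responses.

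At 120 min the log2 change of Neat1 was nearer to 0 in each line than at 60 min. In RAW264.7 the log2 change from 0 min was -0.53 ± 0.38 (adjusted p 0.473), and the 2 groups overlapped. In line 264 it was -1.28 ± 0.38 with an adjusted p of 0.09 by limma, and with the replicate block the adjusted p was 0.0274, so the paired fit called it. Its adjusted p ranged from 0.0201 to 0.174 over the alternatives with all libraries. In line 3205 it was -0.80 ± 0.38 (adjusted p 0.330, 0.151 with the block), and from -1.29 to -0.32 with 1 library left out. The 0 min libraries of both edited lines were part of the choice of Neat1, so these tests are not independent of it. Both libraries at 120 min were below both at 0 min in line 264 and in line 3205, as were those of 23.2% and 21.6% of genes. None of the 4 members passed limma's test for LPS at 120 min without the block. In that fit 10.6%, 5.43% and 5.03% of 17450 genes were called in RAW264.7, line 264 and line 3205. Those shares were 5.08%, 2.88% and 2.89% for higher and 5.52%, 2.55% and 2.14% for lower genes. The response of an edited line differed from that of RAW264.7 at 120 min by -0.75 ± 0.53 for line 264 and by -0.28 ± 0.53 for line 3205, with adjusted p of 1 for both and 95% intervals from -1.94 to 0.44 and from -1.47 to 0.91. Over all genes, 0.0229% and 0.00573% of such differences were called.

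Between 60 and 120 min Neat1 changed by 0.77 ± 0.35 on the log2 scale in RAW264.7 (adjusted p 0.248, limma over all 18 libraries), and no member was called where 7.3% of genes were. The same differences were 1.13 ± 0.35 in line 264 and 1.32 ± 0.35 in line 3205, which hold the 60 min libraries that led to the choice. By means, Neat1 at 120 min was at 70.0%, 43.2% and 59.7% of its unstimulated level in RAW264.7, line 264 and line 3205.

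**Figure D2:**
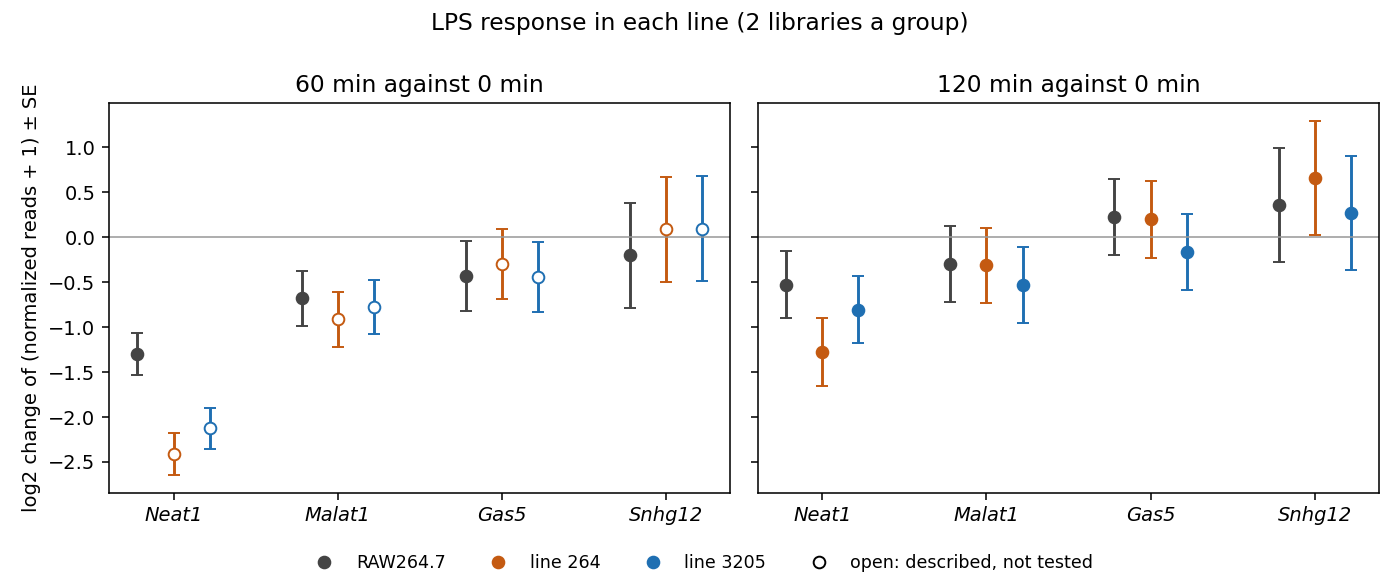
Log2 change of normalized reads plus 1 from 0 min, with its standard error, for each member in each line at 60 min (left) and 120 min (right), with open symbols for values described without a test. Neat1 lies from -1.30 to -2.41 at 60 min and from -0.53 to -1.28 at 120 min, while Gas5 and Snhg12 lie within 1 unit of 0.

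Before stimulation, Neat1 was lower in line 3205 than in RAW264.7 by 1.11 on the log2 scale (-1.11 ± 0.23, adjusted p 0.0108). These unstimulated line 3205 libraries were part of the choice of Neat1, so this test is not independent of it. Both line 3205 libraries lay below both RAW264.7 libraries, as did those of 23.5% of genes. Neat1 and Malat1 were the 2 of 4 members called there, both lower, against 14.3% of 17301 genes (8.42% higher, 5.89% lower). The difference was -0.88 without replicate 1 of RAW264.7 (adjusted p 0.102) and -0.88 without replicate 2 of line 3205 (0.0624). At 120 min the difference was -1.39 ± 0.38 (adjusted p 0.0362), again with Malat1 as the other called member of 4 and 13.9% of genes called (7.94% higher, 5.99% lower). The libraries did not overlap, as for 26.7% of genes. That call was lost without replicate 1 or replicate 2 of RAW264.7 (-1.69 and -1.10, adjusted p 0.0696 and 0.205) and without replicate 1 of line 3205 (-0.91, 0.211). At 60 min the difference was -1.94 ± 0.23, described only.

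In line 264, Neat1 differed from RAW264.7 by -0.31 ± 0.23 at 0 min (adjusted p 0.504, 95% interval -0.84 to 0.21) and by -1.43 ± 0.23 at 60 min, the latter described only. At 120 min the difference was -1.07 ± 0.38 with an adjusted p of 0.10 by limma and 0.0414 with the replicate block (range 0.0414 to 0.176 over the alternatives with all libraries). Without the block, none of the 4 members was called by limma in line 264 at 0 or 120 min, where 13.2% and 13.5% of genes were. Both line 264 libraries lay below both RAW264.7 libraries at 0 and at 120 min, as did those of 24.2% and 27% of genes.

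Ordered by mean, Neat1 ran from 4855 normalized reads in unstimulated RAW264.7 through 3859 in unstimulated line 264, 3398 in RAW264.7 at 120 min, 2243 in unstimulated line 3205, 1994 in RAW264.7 at 60 min, 1667 in line 264 at 120 min, 1340 in line 3205 at 120 min and 726 in line 264 at 60 min to 506 in line 3205 at 60 min. The libraries of neighbouring groups overlapped at 3859 and 3398 and from 2243 through 1340. They did not overlap between the other neighbours in this order. Between unstimulated RAW264.7 and unstimulated line 264 this held for 24.2% of genes. The share was not computed for the other pairs, so their separation is description only. Within each line the order from high to low was 0, 120 and 60 min.

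Malat1 stood at 22211 and 12578 normalized reads in unstimulated RAW264.7, at 8078 and 13465 after 60 min and at 10689 and 17371 after 120 min. In line 264 it stood at 11334 and 14434, then 7240 and 6386, then 9757 and 10861. In line 3205 it stood at 6228 and 6207, then 3030 and 4355, then 2654 and 6990. Replicate 1 of unstimulated RAW264.7 was the highest of all 18, and no LPS response of Malat1 passed the test.

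The 60 min response of Malat1 in RAW264.7 was -0.68 ± 0.30 on the log2 scale (adjusted p 0.390), with overlapping groups. At 120 min the responses were -0.29 ± 0.42, -0.31 ± 0.42 and -0.53 ± 0.42 in RAW264.7, line 264 and line 3205, with adjusted p of 0.758, 0.789 and 0.640 by limma. Malat1 was lower in line 3205 than in RAW264.7 by -1.43 ± 0.30 at 0 min (2.69-fold, adjusted p 0.0117) and by -1.66 ± 0.42 at 120 min (3.16-fold, adjusted p 0.0273). The 60 min difference, described only, was -1.52 ± 0.30. All 6 Malat1 values of line 3205 lay below all 6 of RAW264.7, as did those of 6.92% of genes.

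The Malat1 call at 0 min was lost without replicate 1 of RAW264.7 (-1.02, adjusted p 0.102) and without replicate 1 of line 3205 (-1.43, 0.0519). At 120 min it was lost without either RAW264.7 library (-2.01 and -1.31, adjusted p 0.0542 and 0.170) and without replicate 1 of line 3205 (-0.96, 0.142). Malat1 in line 264 differed from RAW264.7 by -0.39 ± 0.30 at 0 min and -0.40 ± 0.42 at 120 min (adjusted p 0.537 and 0.649). Ordered by mean, every group of RAW264.7 stood above every group of line 3205, and neighbouring groups overlapped except line 264 at 60 min, which overlapped neither line 264 at 120 min above it nor unstimulated line 3205 below it. In line 264, both 120 min libraries lay above both 60 min libraries for 18.7% of genes. For the pair with unstimulated line 3205 the share was not computed.

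Chromosome 19 as a whole stood higher in line 264. This was computed after the neighbours of Neat1 were seen. Of 10 tested genes within 100 kb of Neat1, 5 were called higher in line 264 than in RAW264.7 at 0 min and 4 at 120 min, with none lower. Over all genes 7.61% and 7.33% were called higher there, and 5.57% and 6.13% lower. Among the called neighbours at 0 min were Frmd8 (0.70 ± 0.12), Slc25a45 (0.57 ± 0.13), Dpf2 (0.69 ± 0.12) and Pola2 (0.63 ± 0.18) on the log2 scale. Over the 371 genes of chromosome 19 whose mean reached 50 normalized reads, the median difference of line 264 was 0.50 at 0 min and 0.52 at 120 min, the highest of 20 chromosomes. Of these genes 41.0% were called higher and 2.43% lower at 0 min. Neat1 and Malat1, on the same chromosome, had log2 differences of -0.31 and -0.39 there. In line 3205 the chromosome 19 median was -0.09 at 0 min.

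Chromosome 1, which carries Gas5, had a median difference of 0.44 in line 264 and 0.42 in line 3205 at 0 min over 605 genes, and chromosome 15 had 0.51 in line 3205. The copy number of these chromosomes was not measured. Gas5 itself differed by 0.14 ± 0.39 and -0.05 ± 0.39 at 0 min, and its 6 tested neighbours within 100 kb held no called gene in either line. The bars of the plot of chromosome medians stand near 0 for the other chromosomes.

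**Figure D3:**
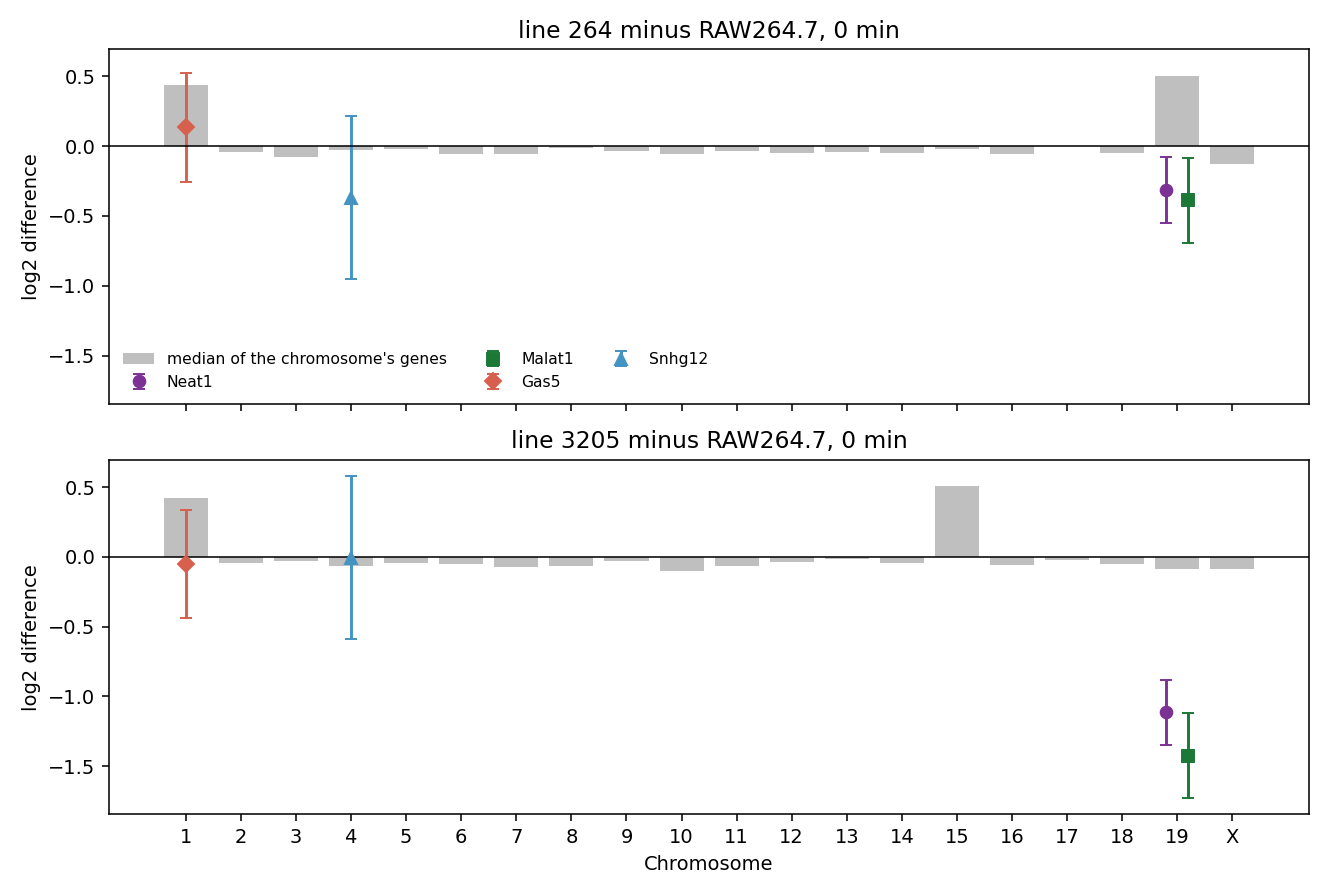
Median log2 difference from RAW264.7 at 0 min over the genes of each chromosome (grey bars, genes whose mean reached 50 normalized reads) in line 264 (top) and line 3205 (bottom), with the 4 members at their chromosomes ± SE. Chromosomes 1 and 19 stand at 0.44 and 0.50 in line 264 and chromosomes 1 and 15 at 0.42 and 0.51 in line 3205, while Neat1 and Malat1 lie below 0 in both lines.

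Near Neat1, 2 of 10 tested genes within 100 kb were called with LPS in every line at 120 min. The shares of all genes were 10.6%, 5.43% and 5.03% in RAW264.7, line 264 and line 3205. Cdc42ep2, an effector of the GTPase Cdc42, rose by 4.66 ± 0.94, 4.37 ± 0.94 and 3.86 ± 0.94 on the log2 scale in RAW264.7, line 264 and line 3205 (limma adjusted p 0.0120, 0.0260 and 0.0462). Slc25a45, a mitochondrial carrier, fell by 1.32, 0.80 and 1.08 (adjusted p 0.0018, 0.0346 and 0.0090). No neighbour within 100 kb of Neat1 was called at 60 min in RAW264.7. Near Gas5, Rc3h1, which encodes the mRNA decay factor Roquin-1, rose at 60 min in RAW264.7 by 0.83 ± 0.16 (adjusted p 0.0204). At 120 min it rose in the 3 lines by 1.14 ± 0.18, 1.16 ± 0.18 and 1.07 ± 0.18 (adjusted p 0.0039, 0.0057 and 0.0098). Of 6 tested neighbours of Gas5, 1 was called higher in each of these comparisons. Over all genes, 1.66% were called higher at 60 min in RAW264.7, and 5.08%, 2.88% and 2.89% at 120 min in the 3 lines. The centromere protein gene Cenpl fell in RAW264.7 at 120 min (-0.70 ± 0.18, adjusted p 0.0364). It was the 1 of 6 called lower there, against 5.52% of all genes. Near Malat1, the kinase gene Map3k11 was lower in line 3205 at 120 min (-0.95 ± 0.17, adjusted p 0.0043). With Neat1 itself, 2 of 10 tested neighbours of Malat1 were called lower there, against 5.99% of all genes. None of the tested neighbours of Snhg12 (10 in the 60 min table, 9 in the 120 min table) was called with LPS or between lines.

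Gas5 stood at 2869 and 3916 normalized reads in unstimulated RAW264.7, at 2090 and 2976 after 60 min and at 2954 and 5215 after 120 min. In line 264 it stood at 2659 and 5100, then 2093 and 4267, then 3150 and 5680. In line 3205 it stood at 2738 and 3822, then 2068 and 2744, then 2199 and 3801. The second library was the higher of the pair in all 9 groups, and neighbouring groups overlapped throughout the order of means.

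No LPS response of Gas5 passed limma's test. It was -0.43 ± 0.39 in RAW264.7 at 60 min (adjusted p 0.818, 95% interval -1.30 to 0.44), and -0.30 ± 0.39 and -0.44 ± 0.39 in lines 264 and 3205, described only. With 1 library left out the line 264 value ran from -0.82 to 0.21 and the line 3205 value from -0.68 to -0.20. At 120 min it was 0.23 ± 0.43, 0.20 ± 0.43 and -0.16 ± 0.43 in the 3 lines (adjusted p 0.829, 0.880 and 0.918). Line 3205 minus RAW264.7 at 120 min was -0.44 ± 0.43, with an adjusted p of 0.589 by limma and 0.0286 with the replicate block (range 0.0286 to 0.654). The pairing thus moved this difference past the threshold.

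Snhg12 stood at 216 and 405 normalized reads in unstimulated RAW264.7, at 199 and 333 after 60 min and at 236 and 612 after 120 min. In line 264 it stood at 145 and 361, then 145 and 410, then 244 and 539. In line 3205 it stood at 223 and 387, then 263 and 377, then 252 and 501. Replicate 2 was again the higher library in all 9 groups, and neighbouring groups overlapped throughout the order of means.

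Changes of Snhg12 with LPS were -0.20 ± 0.58 at 60 min in RAW264.7 (adjusted p 0.997) and 0.36 ± 0.63, 0.66 ± 0.63 and 0.27 ± 0.63 at 120 min in RAW264.7, line 264 and line 3205 (adjusted p 0.813, 0.673 and 0.904). In line 264 the paired fit called the 120 min change (adjusted p 0.0255 with the replicate block, range 0.0255 to 0.728). Against RAW264.7, Snhg12 differed by -0.37 ± 0.58 in line 264 and -0.01 ± 0.58 in line 3205 at 0 min (adjusted p 0.805 and 0.999).

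Gas5 and Snhg12 differed between the replicate numbers. Replicate 2 exceeded replicate 1 by 0.70 ± 0.07 on the log2 scale for Gas5 (1.62-fold, adjusted p 2.0e-05) and by 1.03 ± 0.10 for Snhg12 (2.04-fold, adjusted p 1.8e-05). For Neat1 and Malat1 the same differences were 0.22 ± 0.15 and 0.32 ± 0.17 (adjusted p 0.252 and 0.145). Thus 2 of 4 members were called, against 44.1% of 17367 genes (20.8% higher, 23.3% lower), and 2 of 4 were higher in replicate 2 in all 9 groups, against 12.3% of genes. The comparison was added after the data were seen, and the labels do not say what the replicate number stands for.

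Other host genes and the mitochondrial mRNAs differed in the same direction. Of 9 tested host genes of small nucleolar RNAs, 6 were higher and 1 was lower in replicate 2 (median 0.69, against -0.03 over all genes), among them Snhg1 at 0.69 ± 0.06 and Dancr at 1.38 ± 0.11. All 7 tested mitochondrially encoded mRNAs were higher (median 1.88). Summed over all listed mitochondrially encoded mRNAs present in the tables, tested or not, the level was 2.4 to 6.86 times as high in replicate 2 over the 9 groups. The part of this difference in the Gas5 and Snhg12 values was not tested.

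**Figure D4:**
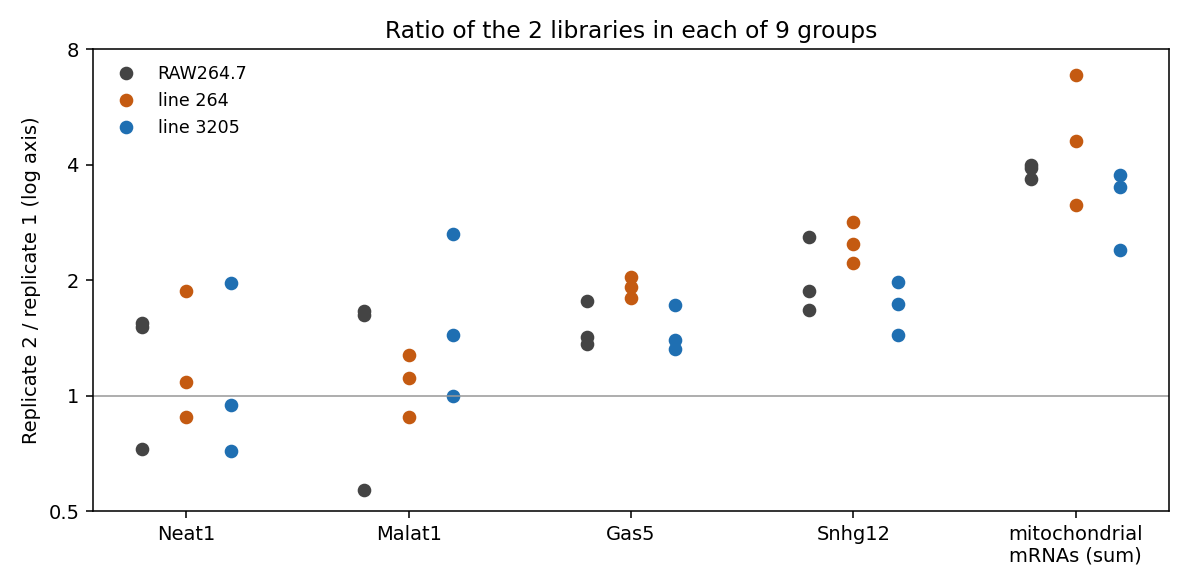
Ratio of replicate 2 to replicate 1 (log axis) in each of the 9 groups, coloured by line, for the 4 members and for the sum of mitochondrially encoded mRNAs. Gas5 lies between 1.33 and 2.04, Snhg12 between 1.44 and 2.84 and the mitochondrial sum between 2.4 and 6.86, whereas Neat1 and Malat1 lie on both sides of 1.

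Genes that work with these RNAs were described by lists chosen with earlier results known. Their counts are read against the shares of all genes called, 2.98% in RAW264.7 at 60 min and 10.6%, 5.43% and 5.03% at 120 min in RAW264.7, line 264 and line 3205. Of 34 tested paraspeckle proteins, 0 rose and 1 fell in RAW264.7 at 60 min, near the share of all genes, and 0 rose and 2 fell at 120 min (0 and 1 in line 264, 1 and 0 in line 3205). With the block 8 rose and 2 fell in RAW264.7 at 120 min, where it called 4137 of 17450 genes. The core proteins Nono, Sfpq and Pspc1 had log2 changes of -0.04 ± 0.15, 0.24 ± 0.25 and 0.20 ± 0.14 at 60 min in RAW264.7 (adjusted p 1, 0.866 and 0.702). The genes that fell were Ss18l1, encoding a subunit of a neuronal chromatin-remodelling complex (-1.42 ± 0.22 at 60 min and -1.27 ± 0.29 at 120 min, adjusted p 0.0061 and 0.0205, and -1.40 ± 0.29 with 0.0212 in line 264), and the cold-inducible RNA-binding protein Cirbp (-0.85 ± 0.18 at 120 min, adjusted p 0.0133). The median of the list in RAW264.7 at 60 min was 0.03 (-0.07 to 0.01 with the other scalings), against -0.002 over all genes.

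Between lines, 4 paraspeckle genes were higher and 1 lower in line 3205 at 0 min, a share near the 14.3% of all genes. With the block 5 were higher and 3 lower, where it called 4581 of 17301 genes. Pspc1, which dimerizes with NONO, was higher by 0.91 ± 0.14 (adjusted p 0.0023) and Cirbp was lower by -0.95 ± 0.17 (adjusted p 0.0052). Pspc1 was still higher at 120 min (0.55 ± 0.14, adjusted p 0.0246), and Cirbp was still lower (-0.78 ± 0.17, adjusted p 0.0159).

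Of 26 speckle and splicing factors, none was called at 60 min in RAW264.7, and 1, 2 and 1 rose at 120 min in RAW264.7, line 264 and line 3205 with none falling. The splicing regulator Tra2a rose in all 3 (0.71 ± 0.11, 0.69 ± 0.11 and 0.69 ± 0.11, adjusted p 0.0032, 0.0057 and 0.0064). The speckle scaffolds Srrm2 and Son had changes of 0.17 ± 0.33 and 0.16 ± 0.24 in RAW264.7 at 120 min (adjusted p 0.84 and 0.77). In line 264 the splicing factor Srsf7 rose as well (0.59 ± 0.14, adjusted p 0.0413). With the block the counts were 4, 8 and 5, where it called 4137, 2859 and 2496 of 17450 genes.

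Among 22 nonsense-mediated decay factors, Etf1, the translation release factor, rose in RAW264.7 at 120 min (0.96 ± 0.20, adjusted p 0.0147) and Smg8 rose in line 3205 (0.69 ± 0.16, adjusted p 0.0409). The helicase Upf1 and the kinase Smg1 had changes of -0.09 ± 0.25 and -0.13 ± 0.19 in RAW264.7 at 120 min (adjusted p 0.900 and 0.772). Of 30 genes of nuclear RNA decay and 3′ end processing, 1 rose in line 3205 at 120 min, Rbm7, an adaptor to the nuclear exosome that the paraspeckle list also holds (0.58 ± 0.13, adjusted p 0.0383), and none was called in RAW264.7 at either time. Its partner Zcchc8 and the helicase gene Skiv2l2 had changes of -0.53 ± 0.17 and 0.25 ± 0.17 in RAW264.7 at 120 min (adjusted p 0.083 and 0.443). With the block 6 rose and 1 fell in RAW264.7 at 120 min, where it called 4137 of 17450 genes. No other host gene of small nucleolar RNAs was called with LPS at 120 min (8 tested). Of 17 other long non-coding RNAs, Trp53cor1 fell in RAW264.7 and line 264 (-1.87 ± 0.48 and -1.91 ± 0.48, adjusted p 0.0346 and 0.0494) and Mir22hg rose in line 3205 (1.95 ± 0.48, adjusted p 0.0475). Pvt1 and Mir17hg had changes of 0.41 ± 0.26 and -0.44 ± 0.82 in RAW264.7 at 120 min (adjusted p 0.399 and 0.827).

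RNAs known to lack a poly(A) tail, such as replication-dependent histone mRNAs and Rn7sk, were followed beside Neat1 and Malat1. None of 20 tested was called with LPS. Their median log2 change was -0.91, -0.46 and 0.06 at 60 min and -0.43, -0.18 and 0.43 at 120 min in RAW264.7, line 264 and line 3205, so the sign differed between lines. Against RAW264.7, 2 were lower and none higher in line 3205 at 0 min, where 5.89% of all genes were lower, and the median was -0.84 at 0 min, 0.06 at 60 min and 0.15 at 120 min. Their summed level over 23 genes ranged from 603 to 916 normalized reads in RAW264.7, from 213 to 410 in line 264 and from 153 to 291 in line 3205, and 17 of the 23 had a mean below 10. The sources used here do not say whether the libraries were made from RNA with poly(A), and the part of this list in the Neat1 and Malat1 values was not tested.

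Of 10131 genes whose mean reached 50 in both tables, those whose pattern was most like that of Neat1 over the 12 libraries of each table were Zfp386, Slc26a2, Epm2aip1, Taz and Mib1, with Pearson r of 0.81 or more in both tables. For Malat1 they were Cdk10, Zfp329 and Amigo1 (at least 0.84), for Gas5 the host gene Snhg4, the decay factor Upf1 and Slc2a4rg-ps (at least 0.87), and for Snhg12 mt-Nd1, mt-Nd4 and mt-Cytb, whose smaller r rounded to 0.95 each. The r between members was 0.86 and 0.84 for Neat1 and Malat1 and 0.72 and 0.83 for Gas5 and Snhg12 in the 60 and 120 min tables. Neat1 and Snhg12 had r of -0.099 and -0.002. These r describe 12 libraries that share size factors, lines and the replicate difference.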

How the data were processed

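RNA of 18 libraries was measured in 9 groups of 2. Trim Galore 0.5.0, STAR 2.4.2, featureCounts (Subread 1.4.6), DESeq2, R 3.4.0 and the build mm10 are named in the submitters' processing notes, without their order or settings. The deposited signal per gene and library is a read count over a size factor of the library: rescaled by 1 step per library, 100% of values lay within 0.1 of a whole read (farthest 0.0693). Both tables carry the same size factors. Per the file headers, the deposited tables hold the authors' log2 fold changes, their standard errors and p-values. The deposited p-value matched a test against a log2 fold change of 1 to within 3.4e-06 in all 10 comparisons.

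The 12 libraries of each table were fitted by group on the log2(value + 1) scale with limma 3.58.1 (R 4.3.3, variance trend on), which understates changes of low genes. Genes needed a mean of at least 1, and an adjusted p (Benjamini-Hochberg over all genes) below 0.05 was a call. On simulated data limma called more unchanged genes than the threshold allows, in the 60 min table mostly at low levels, and edgeR called fewer. Members and lists were chosen with earlier results of these data known. Named genes are the members, up to 3 fixed names per list, the 2 called list members of smallest p per line at 120 min, called neighbours within 100 kb (an item is not reported here) and the genes of most similar pattern. Mir155hg and Zfas1 are fixed names without a value here. Neighbours come from RefSeq, because the tables hold no coordinates. Chromosomes were matched by symbol for 93.4% of genes with a mean of at least 50.

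Replicate numbers come from the labels. Deviations of same-numbered libraries correlated at r 0.16 to 0.56 (median 0.27) over 15 pairs of groups in the 60 min table. In the 120 min table r was 0.22 to 0.56 (0.31). The numbers were therefore taken to pair the samples in the fits with the replicate block. The main fit of LPS and line differences left the pairing out, so the difference between replicate numbers stayed in its standard errors. The alternatives comprised a fit without the trend, pseudocounts of 0.5 and 5, no filter, TMM and quantile scaling, the block, only the groups compared, edgeR 4.0.16 with and without the block, DESeq2 1.42.0 and leaving out each library. A fit over all 18 libraries, the 120 minus 60 min and replicate comparisons and the chromosome medians were added after the data were seen. The other 56 samples of the series were not used here. Python 3.11.15, numpy 2.4.6, pandas 2.3.3 and matplotlib 3.10.9 made tables and plots.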

Additional observations from a re-analysis of the deposited data

Results flagged for a closer look

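With libraries paired by number, Gas5 had higher values at 120 min of LPS than at 0 min in both pairs of RAW264.7 and lower values in both pairs of line 3205. In RAW264.7 it went from 2869 to 2954 and from 3916 to 5215 normalized reads, and in line 3205 from 2738 to 2199 and from 3822 to 3801. The difference between the 2 responses was -0.39 ± 0.60 on the log2 scale. It was tested as an interaction term in limma and had an adjusted p of 1, and 0.539 at the lowest over the alternatives with all libraries, so it did not pass. No other value of the 4 RNAs met the rules for a closer look, and groups of 2 libraries are too small for a check of single outlying libraries.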

How the results depend on the processing

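Over all alternatives, 305 of 342 values of Neat1, 200 of 217 of Malat1, 216 of 237 of Gas5 and 195 of 217 of Snhg12 stayed on the same side of 0 and of the threshold, or within the spread. Among the tested values 2, 4, 13 and 14 changed sign, each with 1 library left out. Of the values described only, Snhg12 in line 264 minus RAW264.7 at 60 min (-0.08) was 0.11 with edgeR and 0.07 with DESeq2, and Gas5 and Snhg12 also crossed 0 with 1 library left out. For the Neat1 decrease in RAW264.7 at 60 min (-1.30), limma without trend (adjusted p 0.0532) and the fit over all 18 libraries (0.0740) ended the call, and the latter also ended it for line 3205 minus RAW264.7 at 0 min (-1.11, 0.0513). For line 3205 minus RAW264.7 at 120 min the call ended without trend (-1.39, 0.0810), with only the groups compared (-1.39, 0.0824) and with edgeR (-1.29, 0.0520), as did that of Malat1 under the first 2 (-1.66). The Neat1 change of line 264 at 120 min was called with the replicate block (-1.28), edgeR with the block (-1.26), DESeq2 (-1.21) and all 18 libraries (-1.28). The 0 min libraries in that change were part of the choice of Neat1. Line 264 minus RAW264.7 at 120 min was called with the block (-1.07) and edgeR with the block (-1.03). The block also called Gas5 in line 3205 minus RAW264.7 and Snhg12 in line 264 at 120 min, and it changed no other call of the 4 RNAs. The cause of these changes was not tested.

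With 1 library left out at a time, Neat1 ranged (log2) from -1.61 to -0.98 for LPS at 60 min in RAW264.7, -0.82 to -0.23, -1.73 to -0.83 and -1.29 to -0.32 for LPS at 120 min in RAW264.7, line 264 and line 3205, -2.37 to -1.89 for LPS at 60 min in line 3205, 0.68 to 1.58 for 120 minus 60 min in line 264 and 0.84 to 1.81 for 120 minus 60 min in line 3205. Its difference from RAW264.7 ranged from -1.74 to -1.11 for line 264 at 60 min, -1.35 to -0.88 for line 3205 at 0 min, -2.26 to -1.63 for line 3205 at 60 min and -1.88 to -0.91 for line 3205 at 120 min. Its difference in response ranged from -1.43 to -0.80 for line 264 at 60 min, -1.14 to -0.51 for line 3205 at 60 min and -0.76 to 0.21 for line 3205 at 120 min. Malat1 ranged from -0.80 to 0.024 for line 264 minus RAW264.7 at 0 min, -0.70 to 0.12 for LPS at 120 min in RAW264.7 and -1.23 to 0.17 for LPS at 120 min in line 3205. Gas5 ranged from -0.82 to 0.21 for LPS at 60 min in line 264, -0.18 to 0.64 for LPS at 120 min in RAW264.7, -0.27 to 0.67 in line 264, -0.56 to 0.23 in line 3205, -0.33 to 0.61 for line 264 minus RAW264.7 at 0 min, -0.32 to 0.53 for the same at 120 min, -0.29 to 0.19 for line 3205 minus RAW264.7 at 0 min and -0.80 to 0.020 for the difference in response of line 3205 at 120 min. Snhg12 ranged from -0.65 to 0.25 for LPS at 60 min in RAW264.7, -0.66 to 0.84 in line 264 and -0.30 to 0.49 in line 3205, -0.33 to 1.05 for LPS at 120 min in RAW264.7, -0.22 to 0.76 in line 3205, -1.03 to 0.29 for line 264 minus RAW264.7 at 0 min, -0.75 to 0.62 for the same at 120 min, -0.46 to 0.45 for line 3205 minus RAW264.7 at 0 min and -0.78 to 0.59 for the same at 120 min.

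Counts of genes called, against which the members are read, moved more than 1.5 times with the replicate block: from 515 to 1398 for RAW264.7 at 60 min, from 1849, 948 and 878 to 4137, 2859 and 2496 at 120 min (RAW264.7, line 264, line 3205), and for lines against RAW264.7 from 2280 and 2476 to 4037 and 4581 at 0 min and from 2348 and 2430 to 4415 and 4753 at 120 min. DESeq2 called 874 for RAW264.7 at 60 min and 1806 and 1702 in lines 264 and 3205 at 120 min, where the fit over all 18 libraries called 1562 and 1389, limma without trend 625 and 548, and the groups compared alone 343 and 202. At 0 min the groups alone gave 1450 and 1157 against RAW264.7, and 1482 for line 3205 at 120 min. edgeR with the block gave 1226 for RAW264.7 at 60 min. At 120 min it gave 3895, 2880 and 2641 (RAW264.7, line 264, line 3205). Against RAW264.7 it gave 4039 and 4553 at 0 min and 4102 and 4621 at 120 min (line 264, line 3205). Calls on the difference in response at 120 min, 4 in line 264 and 1 in line 3205, became 45 and 119 with the block and 54 and 91 with DESeq2. With edgeR and the block they became 42 and 135. With 1 library left out the calls with LPS fell to 179 to 247 for RAW264.7 at 60 min and to 671 to 980, 348 to 586 and 323 to 682 at 120 min in RAW264.7, line 264 and line 3205, and those against RAW264.7 to 1190 to 1703 (line 264) and 1224 to 2342 (line 3205) at 0 min and to 1160 to 1559 and 1110 to 1604 at 120 min. The number of libraries, 2 a group, limits what these fits can detect.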

Other observations

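Genes that work with the 4 RNAs were also compared between the replicate numbers. Of 34 paraspeckle proteins 18 were higher and 3 lower in replicate 2 (limma, over all 18 libraries), among them Sfpq (0.35 ± 0.05, adjusted p 2.1e-04). Of 26 speckle and splicing factors 20 were higher and none lower, among them Srrm2 (0.48 ± 0.06), Srsf2 (0.43 ± 0.05) and Son (0.34 ± 0.04). In that comparison 20.8% of 17367 genes were higher and 23.3% lower. Of 22 nonsense-mediated decay factors 12 were higher and 1 lower, with Upf1 at 0.36 ± 0.05. Of 20 RNAs without a poly(A) tail 0 were higher and 3 lower, a smaller share than that of all genes, with a median of -0.36. The cold-inducible Cirbp (0.04 ± 0.07) and the paraspeckle protein Pspc1 (0.07 ± 0.05) were not called.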
